A study of Lotus japonicus with 6 samples.

Results

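The 100 transcripts described here averaged under 1 CPM in Lotus japonicus root nodules that overexpressed a NAC transcription factor, and between 5.14 and 525 CPM in control nodules. CPM is the count scaled to a library total of 1000000. They were chosen from a table of 46398 transcripts. Of these, 11626 had whole-number read counts in all 6 libraries, and 2655 of those averaged under 1 CPM in the NAC-overexpressing nodules. The 100 with the highest mean CPM in control nodules were kept. Low NAC-OE values and high GUS-OE values therefore chose the members, and the difference between the groups is a description for them. Their calls in the fit over all transcripts are given once beside the background share, with nothing read from them.

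The study has 3 libraries of NAC-OE nodules and 3 libraries of GUS-OE nodules, all of the MG-20 background and all taken at 3 weeks post-inoculation. NAC-OE nodules overexpressed NAC094, which the title of the study links to premature nodule senescence, and GUS-OE nodules overexpressed the reporter enzyme GUS in its place. The promoter of the constructs, the number of independent lines or roots behind each library and any pooling were not stated in the labels. Total counts were 37672335, 36091242 and 39513316 in NAC-OE replicates 1, 2 and 3, and 35531188, 37911538 and 38739912 in GUS-OE replicates 1, 2 and 3. No identifier could be paired with a gene name in the reference used here, so members are described by identifier, level, length and place, and neither the NAC transgene nor markers of nodule cells were analysed here.

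Legume root nodules are organs in which rhizobia, held inside infected plant cells, reduce atmospheric nitrogen in exchange for plant sugars. A mature nodule carries a set of plant transcripts that uninfected roots lack or hold at low levels. In senescence the symbiosis is dismantled, the infected cells are degraded and this set is shut down. NAC proteins bind DNA and occur in plants, and some of them promote the senescence of leaves and other organs. These statements are background and were not tested here.

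The members came from 100 loci, 1 transcript each, and none of these loci had another transcript in the table. Together they held 0.00446%, 0.00417% and 0.00554% of the counts in NAC-OE replicates 1, 2 and 3, against 0.242%, 0.241% and 0.236% in GUS-OE replicates 1, 2 and 3. The summed level was 47.3 ± 7.21 CPM in NAC-OE and 2394 ± 33.8 CPM in GUS-OE (SD, n = 3 each). The members thus made up a small part of the control RNA, at a sum that hardly varied between control libraries. RNA from whole nodules was measured, so fewer cells of a type and less RNA per cell cannot be told apart.

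Control levels were steeply graded. Mean GUS-OE levels ran from 525 CPM for the first member to 5.14 CPM for the last, with a median of 9.96 CPM. Only 3 members exceeded 100 CPM, and 51 lay under 10 CPM. The first 3 members held 43.1% of the summed GUS-OE level, and the first 10 held 57.9%. Per length, the members ranged from 2.03 to 386 FPKM in GUS-OE, with a median of 10.6 FPKM (the authors' values, per kilobase and per library size).

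The most abundant member was Lj6g3v1914550.1, 1357 bases long and on chromosome 6 by its identifier. There were 6, 10 and 4 counts in NAC-OE replicates 1, 2 and 3, against 17508, 23163 and 18223 counts in GUS-OE replicates 1, 2 and 3. Its mean was 0.179 ± 0.0896 CPM in NAC-OE and 525 ± 75.5 CPM in GUS-OE (SD, n = 3 each), which is 2928-fold lower in NAC-OE. In GUS-OE it ranked 188th of all transcripts by CPM and 349th by FPKM, so it was prominent in control nodules without being among their leading transcripts.

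The second member, Lj1g3v4549060.1 (927 bases, chromosome 1), had the steadiest control level of all 100. It had 0, 0 and 3 counts in the NAC-OE libraries and 10902, 11413 and 11752 counts in the GUS-OE libraries. The GUS-OE mean was 304 ± 2.91 CPM (SD, n = 3), a coefficient of variation (CV) of 0.959%. With 3 counts left in NAC-OE, the ratio of the summed levels was 11466, with an exact 95% counting interval of 3923 to 55605. All 3 of the remaining counts fell in NAC-OE replicate 3.

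Lj0g3v0256559.1 (1737 bases, on sequence not placed on a chromosome), the next in rank, kept more counts. It had 34, 7 and 48 counts in NAC-OE and 7912, 7118 and 7732 counts in GUS-OE. Its mean was 0.770 ± 0.523 CPM in NAC-OE and 203 ± 17.8 CPM in GUS-OE (SD, n = 3 each), 264-fold lower in NAC-OE. The remaining counts were uneven, with NAC-OE replicate 2 far below the other two NAC-OE libraries.

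The fourth, Lj5g3v0265880.1 (2547 bases, chromosome 5), was the most abundant member with no count left. It had 0 counts in each NAC-OE library and 3320, 3683 and 3905 counts in GUS-OE. The GUS-OE mean was 97.1 ± 3.68 CPM (SD, n = 3). Against a floor of 3 counts over the 3 NAC-OE libraries it was at least 3667-fold lower in NAC-OE. Folds of this kind bound the NAC-OE side alone, and intervals and floors cover counting error only.

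The next 6 members lay between 33.1 and 55.8 CPM in GUS-OE and differed more in what was left. Lj1g3v0948480.1 (675 bases) had 13, 8 and 14 counts in NAC-OE and 2045, 2128 and 2083 in GUS-OE, an even loss over libraries. Lj0g3v0135359.1 (1777 bases) had 53, 4 and 44 counts in NAC-OE and 2080, 1612 and 2021 in GUS-OE. As in Lj0g3v0256559.1, NAC-OE replicate 2 was the low one.

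Lj0g3v0125209.1 (987 bases) had 4, 0 and 2 counts in NAC-OE and 1254, 1954 and 1593 in GUS-OE, which made it 816-fold lower in NAC-OE by mean CPM. Lj0g3v0352469.1 (1666 bases) had 0, 4 and 22 counts in NAC-OE and 1768, 1041 and 1427 in GUS-OE. Here NAC-OE replicate 3 held most of the remainder, and the control libraries differed among themselves with a CV of 29.5%. Lj6g3v0410510.1 (838 bases) had 26, 22 and 18 counts in NAC-OE and 1132, 1467 and 1510 in GUS-OE, and Lj0g3v0348559.1 (1604 bases) had 18, 24 and 14 in NAC-OE and 1135, 1256 and 1331 in GUS-OE. These last 2 were 62.4-fold and 66.4-fold lower in NAC-OE. Their NAC-OE means were 0.585 ± 0.119 and 0.499 ± 0.156 CPM (SD, n = 3 each).

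**Figure D1:**
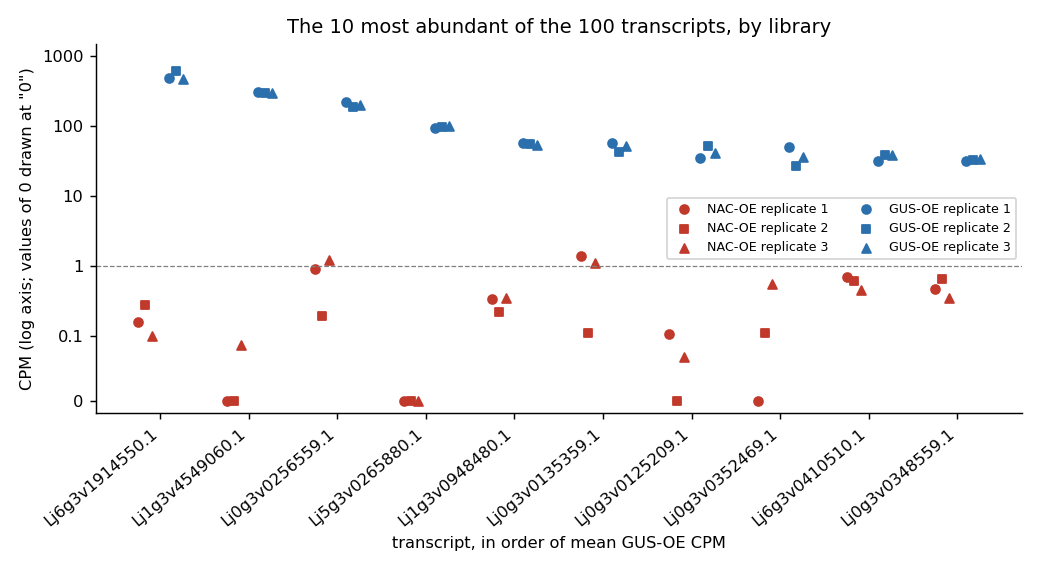
Level of the 10 most abundant members in each library (y axis, CPM on a log axis, with values of 0 drawn at the mark "0"; x axis, transcripts in order of mean GUS-OE level; each point is 1 library). All NAC-OE points lie under 2 CPM and all GUS-OE points lie above 20 CPM, while the NAC-OE points of a transcript can differ more than 10-fold among themselves.

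Over all 100 members the loss differed widely in size. By mean CPM, 85 members were at least 10-fold lower in NAC-OE, 27 at least 50-fold and 16 at least 100-fold. The smallest loss was that of Lj0g3v0346759.1, with 24, 36 and 46 counts in NAC-OE and 174, 268 and 174 in GUS-OE, 5.88-fold lower in NAC-OE. The median member kept 3.69% of its GUS-OE level in NAC-OE. All 100 members were called lower in NAC-OE by the edgeR quasi-likelihood test fitted over the whole table (Benjamini-Hochberg adjusted p under 0.05), against 30.7% of all 46346 transcripts tested. Over all transcripts 14241 were lower and 14587 higher in NAC-OE, and with library size as the only scaling 10342 (22.3%) were lower and 18513 higher. The GUS-OE and NAC-OE values did not overlap in any of the 100, with GUS-OE the higher, against 25.3% of all transcripts tested. The same libraries chose the members, so nothing is read from these counts.

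**Figure D2:**
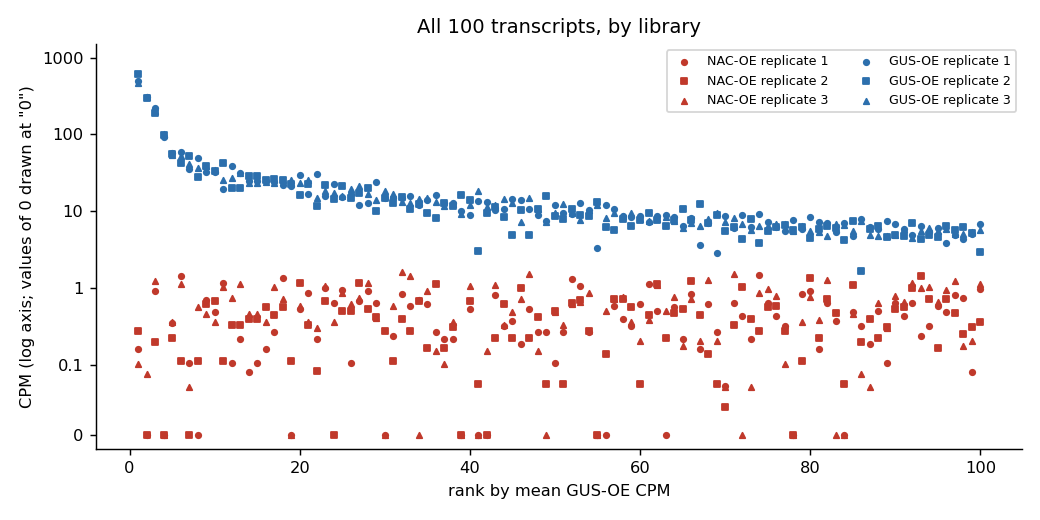
Level of all 100 members in each library (y axis, CPM on a log axis, with values of 0 drawn at the mark "0"; x axis, rank by mean GUS-OE CPM; each point is 1 member in 1 library). The GUS-OE points fall from 525 CPM on average to 5.14 CPM along the ranks, and the mean NAC-OE level is under 1 CPM throughout, as the rule requires.

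Most members were not silent in NAC-OE: 81 had counts in all 3 NAC-OE libraries, 9 had none in 1 library, 6 had none in 2 libraries and 4 had none in any.

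The 4 members with no NAC-OE count in any library spanned a wide range of control levels. Beside Lj5g3v0265880.1 they were Lj3g3v1953280.1, with 357, 617 and 355 counts in GUS-OE, Lj3g3v0428740.1, with 118, 502 and 462, and Lj5g3v0404870.1, with 271, 212 and 213. At the floor of 3 counts these were at least 447-fold, 359-fold and 236-fold lower in NAC-OE. Without NAC-OE replicate 2, 8 members had no NAC-OE count. Those without a count in 2 libraries included Lj6g3v1966760.1, with 0, 4 and 0 counts in NAC-OE and 747, 844 and 982 in GUS-OE, and Lj0g3v0122889.1, with 0, 10 and 0 in NAC-OE and 526, 564 and 710 in GUS-OE. In both, the library with counts was NAC-OE replicate 2.

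The remaining counts were not spread evenly over the NAC-OE libraries. Summed over members they were 1682, 1506 and 2190 in NAC-OE replicates 1, 2 and 3, or 44.6, 41.7 and 55.4 CPM. Replicate 3 had the highest value for 44 of the 96 members with any NAC-OE count, replicate 2 for 29 and replicate 1 for 23. Across members, NAC-OE replicates 1 and 3 ranked them more alike (rho 0.59) than replicate 2 with either (rho 0.39 and 0.38). In GUS-OE the same coefficients were between 0.73 and 0.90, over members that share libraries and at far higher counts. The rule also kept NAC-OE means under 1 CPM, while GUS-OE means ran from 5.14 to 525 CPM, so the coefficients of the groups cannot be compared.

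The 3 members with the most counts left in NAC-OE showed both patterns. Lj2g3v1349230.1 had 34, 48 and 30 counts in NAC-OE and 298, 168 and 216 in GUS-OE, with NAC-OE replicate 2 highest. Lj6g3v1065720.1 had 31, 14 and 63 counts in NAC-OE and 519, 586 and 506 in GUS-OE, with 58.3% of the NAC-OE counts in replicate 3. Lj0g3v0346759.1, described above, was the other one.

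Low counts were mostly even numbers. Of the 267 NAC-OE values of members above 0, 195 (73.0%) were even, and among all values of 1 to 50 counts in transcripts with whole counts 65.3% were even. Where both reads of a fragment are counted, even numbers are more frequent, and 2 counts can then stand for 1 fragment. The labels do not say how read pairs were counted, so counting intervals may be too narrow. A floor of 3 counts may stand for fewer fragments, and folds given as at least a value may then be too high.

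Lists chosen in the same way on fewer libraries gave a comparison in libraries whose levels the choice had not used. Whole counts were still required in all 6 libraries. Replicates of a group were alike (correlations 0.975 to 0.990), so a large share called lower could be foreseen. The shares over all transcripts cover all control levels and are not matched to the lists. The rule was applied to replicate 1 of both groups alone, and the list of 100 was then tested in the other 4 libraries, with edgeR fitted over all 46157 transcripts that passed the filter there. All 100 were lower in NAC-OE (edgeR, Benjamini-Hochberg adjusted p at most 0.0154), with a median log2 fold change of -4.85, against 24.4% of all transcripts called lower and a median of 0.01 over all of them. Lists chosen on replicate 2 and on replicate 3 had 99 and 100 of 100 called lower, against 27.5% and 25% of all transcripts. In each of the 3 lists all 100 transcripts had higher values in both GUS-OE libraries not used in the choice than in both such NAC-OE libraries, against 28.7%, 30.5% and 31.1% of all transcripts tested.

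Fewer of the listed transcripts stayed under 1 CPM in the other libraries than were called lower there. A limit applied to 1 library makes this likely in advance, so nothing is read from the contrast. In the NAC-OE libraries not used in the choice, 80, 65 and 87 of the 100 transcripts stayed under 1 CPM on average for lists chosen on replicates 1, 2 and 3, and the highest value was 3.91 CPM. The lists shared 79, 71 and 79 transcripts with the 100 members. The 1 transcript not called was Lj0g3v0079529.1, no member, in the list chosen on replicate 2. It had 60, 14 and 246 counts in NAC-OE and 266, 265 and 317 in GUS-OE (log2 fold change in replicates 1 and 3 -1.31, edgeR adjusted p = 0.0517). With 2 libraries per group these tests rest on few samples, and the p-values reflect library-to-library spread alone. The design text speaks of biological replicates without saying what separates them, so part of that spread may be technical.

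**Figure D3:**
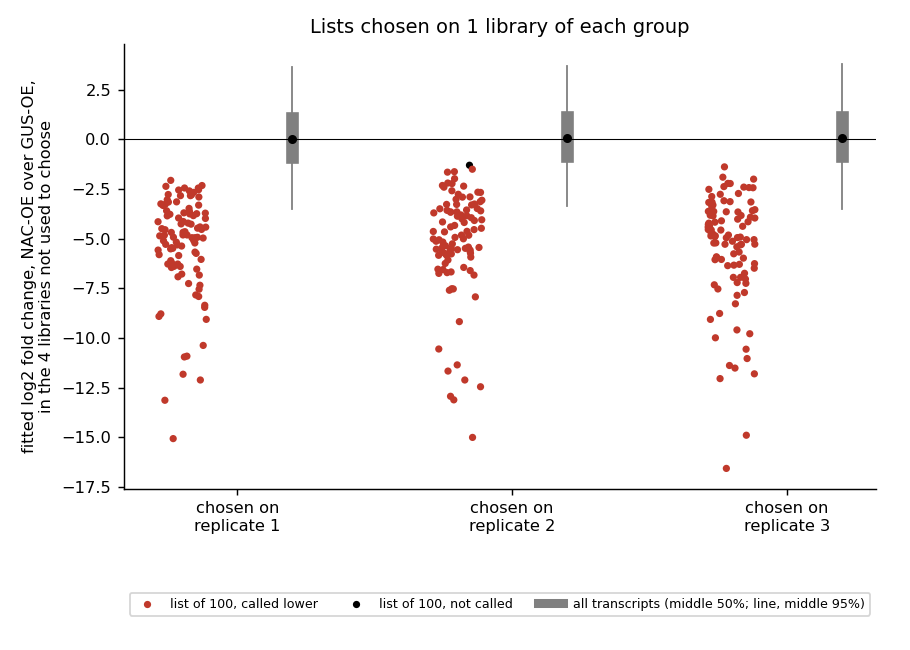
Fitted log2 fold change of NAC-OE over GUS-OE (y axis) in the 4 libraries not used for choosing, for 3 lists of 100 transcripts chosen on replicate 1, 2 or 3 of both groups (x axis; points, with red for called lower and black for not called), beside all transcripts of the same fit (black dot, median; thick bar, middle 50%; line, middle 95%). The list medians are -4.85, -4.83 and -4.89, and all listed transcripts lie under 0. Whole counts were required in all 6 libraries.

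Members were rare among transcripts of their control level. At or above the level of the last member there were 5782 transcripts with whole counts, of which the 100 members were 1.73%. Their share was 3.82% among those under 10 CPM in GUS-OE, 1.95% from 10 to 20 CPM, 0.953% from 20 to 50 CPM and 0.444% from 50 CPM upwards within the members' range. A fixed limit in NAC-OE asks for a larger loss at a higher control level, so this order follows in part from the rule. Another 105 transcripts as abundant in GUS-OE averaged between 1 and 2 CPM in NAC-OE, so the members form the edge of a continuous distribution.

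Transcripts just inside and just outside a limit were close in the value that the limit used, and could differ in the other. The last member, Lj0g3v0049149.1, had 36, 13 and 44 counts in NAC-OE and 242, 110 and 221 in GUS-OE, a GUS-OE mean of 5.14 CPM. The first transcript outside by rank, Lj1g3v3354010.1, had 0, 4 and 8 counts in NAC-OE and 225, 166 and 182 in GUS-OE, where it also averaged 5.14 CPM. At the limit in NAC-OE, Lj2g3v1349230.1 averaged 0.997 CPM inside it and Lj6g3v1944150.1 averaged 1.002 CPM outside it, with 6.13 and 8.21 CPM in GUS-OE. The most abundant transcript kept out between 1 and 1.1 CPM was Lj1g3v2608130.1, with 34, 16 and 72 counts in NAC-OE and 2195, 1858 and 2024 in GUS-OE. By its GUS-OE mean of 54.3 CPM it would have ranked sixth.

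**Figure D4:**
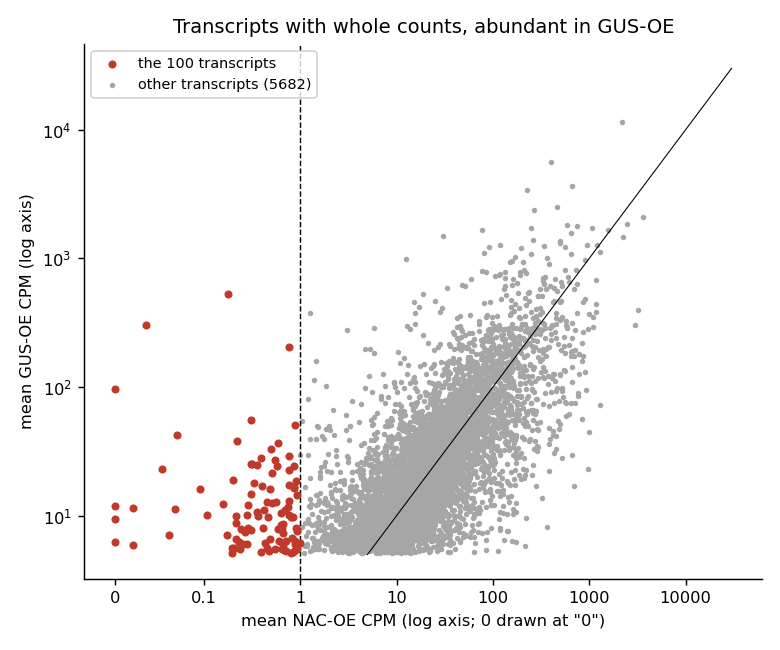
Mean GUS-OE level (y axis, CPM, log axis) against mean NAC-OE level (x axis, CPM, log axis, with 0 drawn at the mark "0") for the 5782 transcripts with whole counts at or above the control level of the last member. Each point is a transcript, the dashed line is the limit of 1 CPM, the solid line is equality, and the 100 members (red) continue the cloud of the other transcripts (grey) to the left of the limit.

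By median CV, members varied more between the control libraries than other transcripts of the same GUS-OE range, except at 50 CPM and above. The rule used the mean of the same GUS-OE values and not their spread. The median CV over the 3 GUS-OE libraries was 17.6% among members, against 10.7% among the 5599 other transcripts with whole counts in the same range of GUS-OE CPM. The 2 sets also differed in level, with medians of 9.96 and 21.1 CPM in GUS-OE, and no test was made over transcripts. Transcripts at 1 to 2 CPM in NAC-OE, just above the limit, were not compared apart, so the spread is not shown to be particular to the members. Within classes of level the medians were 17.7% against 14.5% under 10 CPM, 21.1% against 12.01% from 10 to 20 CPM and 11.04% against 9.57% from 20 to 50 CPM, and the order turned at 50 CPM and above, where 6 members had 6.26% against 8.30%. Counting error alone would give a median CV of 5.18% for the members, or 7.33% if both reads of each pair were counted.

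The highest control library exceeded the lowest at least 2-fold in 14 members (14 of 100), against 3.86% of the 5599 others, which were not matched for level here. GUS-OE replicate 2 was the lowest in 9 of the 14, replicate 1 in 4 and replicate 3 in 1. In the whole set GUS-OE replicate 2 was the lowest for 44 of 100 members and for 43.3% of the others, so the members shared this feature with other transcripts.

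The 3 members with the largest CV showed different libraries apart. Lj0g3v0157999.1 had 0, 2 and 0 counts in NAC-OE and 481, 116 and 698 in GUS-OE, a CV of 66.5% with replicate 2 low. Lj0g3v0347469.1 had 12, 7 and 3 counts in NAC-OE and 284, 62 and 284 in GUS-OE, also with replicate 2 low. In Lj1g3v1287000.1, with 6, 16 and 8 counts in NAC-OE and 128, 471 and 245 in GUS-OE, replicate 2 was instead the highest and replicate 1 the lowest. Even in these 3 the lowest control value exceeded all NAC-OE values.

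The members were shorter by median than the other transcripts of the same GUS-OE range. The median transcript among those others kept 88.3% of its GUS-OE level in NAC-OE. The 105 transcripts at 1 to 2 CPM in NAC-OE were not compared apart, so shortness is not shown to be particular to the members. Their median length was 974 bases (quartiles 669 and 1363), against 1507 bases (1030 and 2150) for the others of the same GUS-OE range and 1277 bases for all transcripts. Within classes of level the medians were 864 against 1431 bases under 10 CPM, 1173 against 1518 from 10 to 20 CPM and 987 against 1584 from 20 to 50 CPM. The 6 members at 50 CPM and above did not follow this, with 1547 against 1500.5 bases. At a given count a shorter transcript has a higher level per length, and a limit set in CPM treats lengths differently from one set in FPKM.

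Length mattered most for the shortest member. Lj6g3v0258720.1, a model of 104 bases on chromosome 6, had 21, 17 and 30 counts in NAC-OE and 293, 293 and 291 in GUS-OE. Per length this was 75.2 ± 3.62 FPKM in GUS-OE (SD, n = 3), above the 28.7 FPKM of Lj0g3v0135359.1, the sixth member by CPM. In NAC-OE 5.71 FPKM remained. At the other end, Lj6g3v1088780.1 (3143 bases) had 56, 10 and 34 counts in NAC-OE and 321, 146 and 245 in GUS-OE, or 2.03 ± 0.825 FPKM in GUS-OE. When the rule was applied to FPKM in place of CPM, 70 of the 100 members were chosen again.

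**Figure D5:**
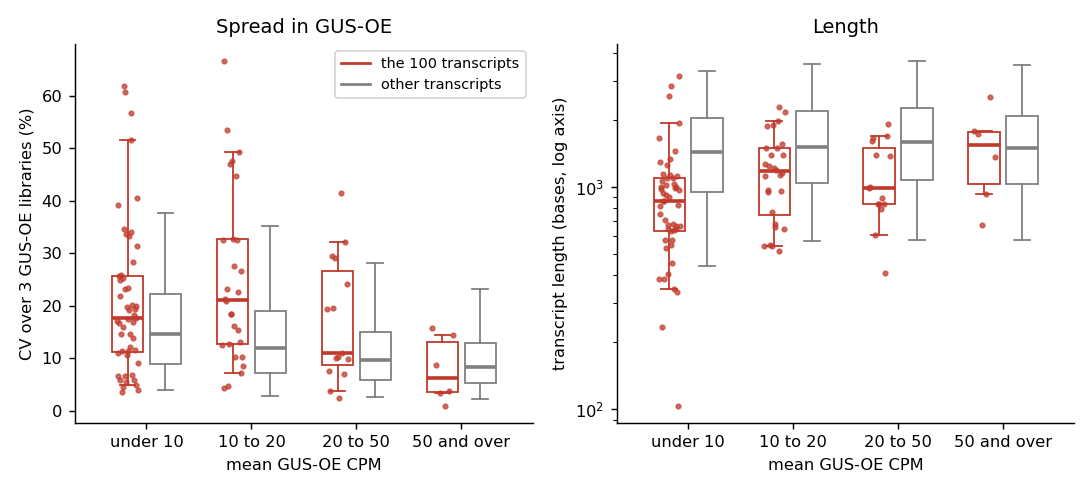
CV over the 3 GUS-OE libraries (left, %) and transcript length (right, bases, log axis) by class of mean GUS-OE CPM (x axis) for the 100 members (red, with each member as a point) and the 5599 other transcripts with whole counts in the same range (grey). Boxes show the middle 50% and the median, and whiskers the 5th to 95th percentile. The members' median CV is higher and their median length lower in the first 3 classes, and not in the 6 members of the last.

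Judged by their identifiers, members lay on all chromosomes. On unplaced sequence there were 29, against 27.2% of the others of the same GUS-OE range. Chromosomes 1 to 6 held 14, 11, 12, 14, 6 and 14 members, against 17.99%, 12.1%, 11.9%, 12.8%, 9.48% and 8.59% of the others. Among the 71 members on chromosomes 1 to 6, no 2 sat at adjacent loci in identifier order, and members on unplaced sequence were not compared in this way.

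Loci next to members moved in both directions, and the share called lower is given beside that of all placed loci, with no test of the difference. On chromosomes 1 to 6, 141 loci adjacent to a member could be tested by their first transcript. Of these 63 (44.7%) were lower in NAC-OE and 32 (22.7%) higher, against 33.2% and 29.8% of all placed loci (edgeR, adjusted p under 0.05). Their median log2 fold change was -0.36, against -0.07 over all placed loci. Single adjacent loci ranged from -11.7 (Lj3g3v1931860.1) to 4.57 (Lj3g3v0428730.1). With whole counts alone, 32 of 61 adjacent loci were lower, against 40.5% of all placed loci with whole counts. Whether reads shared between neighbours played a part was not tested.

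In 6 places 2 members were separated by 5 or fewer loci. The closest were Lj2g3v0911810.1 and Lj2g3v0911840.1, with 1 locus between them. Lj2g3v0911810.1 had 18, 39 and 18 counts in NAC-OE and 168, 281 and 214 in GUS-OE. Lj2g3v0911840.1 had 12, 26 and 40 counts in NAC-OE and 188, 184 and 235 in GUS-OE. The transcript between them, Lj2g3v0911830.1, averaged 3.18 ± 0.277 CPM in NAC-OE and 6.51 ± 0.981 CPM in GUS-OE (SD, n = 3 each) and was also lower (log2 fold change -1.36, edgeR adjusted p = 0.000222), from fractional counts.

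Over the 6 places there were 21 loci in between, of which 10 were lower, 8 higher and 3 not called. Of all placed loci 33.2% were lower and 29.8% higher, and no test of the difference was made. The stretches described next were picked after their values were seen. On chromosome 1, all 5 loci between Lj1g3v3101600.1 and Lj1g3v3103790.1 were lower in NAC-OE. The only one of these 5 with whole counts was Lj1g3v3102660.1, with 52, 35 and 56 in NAC-OE and 1430, 1478 and 1535 in GUS-OE (log2 fold change -5.31, edgeR adjusted p = 5.61e-08). It was kept out of the members by its NAC-OE mean of 1.26 CPM. Lj1g3v3101600.1 had 8, 3 and 12 counts in NAC-OE and 1080, 441 and 567 in GUS-OE, and Lj1g3v3103790.1 had 10, 10 and 34 in NAC-OE and 363, 323 and 403 in GUS-OE. Another member, Lj1g3v3105150.1, followed after 13 more loci, with 8, 11 and 14 counts in NAC-OE and 453, 440 and 472 in GUS-OE. Of the 18 other loci in this stretch, 9 were lower, 4 higher and 5 not called. In contrast, 4 of the 5 loci between Lj4g3v0867510.1 and Lj4g3v0877710.1 on chromosome 4 were higher in NAC-OE and 1 was not called. The 4 had fractional counts, so they may not be separate measurements, and the 1 not called had whole counts.

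A pair on chromosome 3 could not be told apart by its counts. Lj3g3v1929780.1 had 3, 14 and 18 counts in NAC-OE and 878, 1070 and 902 in GUS-OE. Lj3g3v1931850.1, with 3 loci in between, had 4, 14 and 18 counts in NAC-OE and 870, 1069 and 902 in GUS-OE. Both models were 841 bases long, and their counts differed by 0.174% of their sum, the next closest pair of members by 2%. Values so alike can come from reads assigned to both of 2 near-identical copies, which was not tested, so each of these levels is uncertain and the pair may stand for 1 measurement.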

How the data were processed

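Libraries were prepared from total nodule RNA, per the labels' protocols. Per the submitters' processing notes, fastp 0.22.0, HISAT2 and featureCounts were used. The build, the annotation and whether strand was used were not stated, so reads of a gene and of an overlapping or antisense neighbour cannot be told apart. The authors deposited estimated counts, fractional in many rows, and the FPKM values were deposited by the authors beside them. CPM was the count over the library's summed counts. Lengths were derived from counts and FPKM, with totals set so that lengths came out whole. They were fixed to 1 base for 83 of the 100 members and to within 0.301% for the rest.

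The members, their comparison sets and the tests were chosen with earlier results of these data known. Rounded counts entered the quasi-likelihood test of edgeR 4.0.16 under R 4.3.3 (glmQLFit and glmQLFTest, robust, TMM factors, filterByExpr with a minimum count of 10, group alone), with Benjamini-Hochberg adjustment over all transcripts tested. The filter kept 46346 of 46398 rows and all 100 members. The tests were tried on simulated data first. Alternatives were no filter, RLE scaling, unscaled library sizes, DESeq2 1.42.0, limma-voom (limma 3.58.1), a replicate block, leaving out each library, and other forms of the choosing rule.

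Members were named by rank, spread, remaining counts, closeness to a limit, place and length. The 4 members with no NAC-OE count and 2 of the 6 with counts in 1 NAC-OE library were named after their values were seen. The same holds for the members and loci of the chromosome 1, 3 and 4 pairs beyond the closest pair. It also holds for the adjacent loci named as the ends of the range of log2 fold change. No sequences of this build were used here. Labels give no batch. Replicates of a group correlated at 0.975 to 0.990 on the log2(CPM + 1) scale.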

Additional observations from a re-analysis of the deposited data

How the results depend on the processing

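The members' own calls were 100 of 100 in each of the 13 alternative fits, against 22.3% to 31.4% of all transcripts, and say nothing of stability, since the rule used the same libraries. Library size alone moved the median over all transcripts from 0.01 to 0.34 (log2 fold change) and that of the members from -5.08 to -4.76. The counts of calls over all transcripts, 14241 lower and 14587 higher, were 10342 and 18513 with library size alone, so the split depends on the scaling. They were 3334 and 3697 with whole counts alone, an alternative added after seeing the data in which fewer rows were tested. With 1 library left out they were 12057 to 13421 lower and 12848 to 14649 higher. The list chosen on replicate 1 had 98 of 100 called lower with DESeq2 and 100 under the other fits. The 2 lost were Lj4g3v0877710.1 and Lj1g3v2809510.1, each with no count in NAC-OE replicate 3 (DESeq2 log2 fold change -5.61 and -3.71, adjusted p 0.0572 and 0.264). With edgeR their log2 fold changes were -5.68 and -3.76.

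The members' share of counts differed by -0.235 percentage points (NAC-OE minus GUS-OE), and -0.237 to -0.233 without 1 library. Re-chosen lists gave -0.178 with a limit of 0.5 CPM, -0.373 with 2 CPM, -0.424 with fractional counts allowed, -0.242 with TMM-scaled CPM and -0.250 by FPKM. They shared 55, 52, 44, 96 and 70 transcripts with the members. The number with no NAC-OE count, 4 among the members, was 9 with a limit of 0.5 CPM, 2 with 2 CPM and 10 by FPKM, and 4 to 8 without 1 NAC-OE library. With the replicate number as a block, 13822 transcripts were lower and 14127 higher, and the list chosen on replicate 1 had 100 of 100 lower. Deviations of same-numbered libraries correlated at -0.06, 0.12 and -0.06, so the numbers were not taken as pairs. Depth limits the folds of members with few NAC-OE counts.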

Other observations

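The requirement of whole counts left out further transcripts lost in NAC-OE, as it left out most transcripts of this control level. Among all 18431 transcripts at or above the control level of the last member, 254 (1.38%) averaged under 1 CPM in NAC-OE, and 154 of these had fractional counts. Whole counts were held by 5782 of the 18431, and the 100 members were 1.73% of those 5782. The most abundant of the 154 with fractional counts averaged 264 CPM in GUS-OE, below the first 2 members. With fractional counts allowed, 44 of the 100 members were chosen again. The labels do not say how reads were divided between transcripts.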
